A study of Mus musculus with 4 samples.

Results

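The RNA of 9 genes that hold the cell cycle in check was followed in sorted mouse skin cells. They are the 3 Cip/Kip inhibitors of cyclin-dependent kinases (CDKs), Cdkn1a, Cdkn1b and Cdkn1c, the 4 Ink4 genes, Cdkn2a, Cdkn2b, Cdkn2c and Cdkn2d, and the tumour suppressor genes Rb1 and Trp53. They were chosen by name for their part in oncogene-induced senescence and make up 9 of the 22524 genes in the deposited tables. All 9 had a row and all 9 passed the filter on low counts, with 50 to 3387 reads per gene and library.

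The cells were tdTomato-positive cells collected by fluorescence-activated sorting from pre-tumorigenic dermal hyperplasia. There were 2 libraries labelled Ezh2Y646N and 2 labelled NrasQ61K. Per the labels, the mice of both groups carried Tyr::NrasQ61K, Tyr::CreERT2 and R26R-LSL-tdTomato, and tamoxifen induced the labelling. ColA1-LSL-Ezh2Y646N, a mutant histone methyltransferase that Cre switches on, stands in brackets in the protocol and is read here as carried by the group with that genotype label. The promoter of the tyrosinase gene drives both the oncogene and the Cre, so both act where that melanocyte promoter is active. The sources used here do not give age, the number of animals or any pooling, so p-values measure only the spread between these libraries, which may be technical. In bulk RNA, fewer cells of a type and less RNA per cell cannot be told apart.

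Background: a growing cell passes into S phase when cyclin-CDK complexes phosphorylate the retinoblastoma protein, encoded by Rb1, which then releases E2F transcription factors. Ink4 proteins bind Cdk4 and Cdk6 and keep D-type cyclins off them, while Cip/Kip proteins bind assembled cyclin-CDK complexes. The p53 protein, encoded by Trp53, switches on Cdkn1a after DNA damage and oncogene stress. In melanocytes an active Ras pathway is known to be able to end in senescence, an arrest that runs through these proteins, and the Cdkn2a locus is a known target of Polycomb repression, the pathway in which Ezh2 is the methyltransferase.

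Upstream sequences are shown for the genes on which the results below turn, since Cdkn1a and Cdkn2a are each transcribed from 2 start sites that a count per gene cannot separate. The sequences are RefSeq's on GRCm38.p6, and 7 of the 9 genes were matched in the table used here. Each covers the 250 bases before a start, 5′ to 3′ on the gene's strand. Capitals mark matches on either strand to the GC box GGGCGG, or to the p53 response element's consensus with at most 1 mismatch and no spacer, 2 motifs with no overlap here. A match is a description of letters, not a binding site.
Cdkn1a, first start (chr17:29090729-29090978, + strand): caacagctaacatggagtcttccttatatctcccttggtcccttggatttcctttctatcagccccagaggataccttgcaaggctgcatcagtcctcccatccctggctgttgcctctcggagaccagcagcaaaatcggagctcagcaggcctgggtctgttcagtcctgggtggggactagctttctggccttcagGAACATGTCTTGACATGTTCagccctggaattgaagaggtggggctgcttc
Cdkn1a, second start (chr17:29093519-29093768, + strand): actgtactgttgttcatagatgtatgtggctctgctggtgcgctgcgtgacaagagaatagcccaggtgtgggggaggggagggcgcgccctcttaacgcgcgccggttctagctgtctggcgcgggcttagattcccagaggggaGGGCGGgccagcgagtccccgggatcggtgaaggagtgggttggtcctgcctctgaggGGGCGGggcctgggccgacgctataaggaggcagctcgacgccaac
Cdkn1b (chr6:134920151-134920400, + strand): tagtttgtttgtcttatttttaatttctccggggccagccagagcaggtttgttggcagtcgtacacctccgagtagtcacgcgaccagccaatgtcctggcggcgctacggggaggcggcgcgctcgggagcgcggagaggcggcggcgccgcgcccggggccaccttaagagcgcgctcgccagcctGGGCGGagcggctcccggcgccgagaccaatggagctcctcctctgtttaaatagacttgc
Cdkn2a, first start (chr4:89294620-89294869, - strand): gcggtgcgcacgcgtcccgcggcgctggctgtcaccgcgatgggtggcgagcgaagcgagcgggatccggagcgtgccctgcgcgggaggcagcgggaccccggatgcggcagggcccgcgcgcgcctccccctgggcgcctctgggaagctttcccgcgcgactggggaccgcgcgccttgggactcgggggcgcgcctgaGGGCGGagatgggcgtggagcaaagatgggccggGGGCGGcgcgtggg
Cdkn2a, second start (chr4:89282193-89282442, - strand): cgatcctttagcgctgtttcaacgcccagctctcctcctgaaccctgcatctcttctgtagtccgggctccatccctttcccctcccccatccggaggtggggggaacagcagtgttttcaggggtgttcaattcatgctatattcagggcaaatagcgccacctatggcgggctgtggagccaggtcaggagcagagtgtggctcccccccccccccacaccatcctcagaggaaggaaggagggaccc
The match to the p53 element begins 51 bases before the first Cdkn1a start and has 1 mismatch. Such a match stood in 0.08% of 32851 upstream windows of this length, and in none of the other 9 windows of the 7 genes. GC boxes stood in 32.74% of all windows. There were 2 before the second Cdkn1a start, 1 before Cdkn1b and 2 before the first Cdkn2a start. Among the windows not shown, there were 3 before the first Cdkn2c start and 3 before Cdkn2d. The 2 starts of Cdkn1a lie 2790 bases apart and those of Cdkn2a 12427 bases apart. Cdkn2c also has 2 starts, 1384 bases apart. The first Cdkn2a start leads the RNA of p19Arf, which protects p53 by holding Mdm2, and the second that of the Ink4 protein p16, so the Cdkn2a count sums a p53 guardian and a CDK inhibitor.

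None of the 9 genes was called different between the groups. Counts were compared with edgeR's quasi-likelihood test after TMM scaling (trimmed mean of M-values), with Benjamini-Hochberg adjustment over 14265 genes and a threshold of 0.05. In that test 0 of the 9 were called, where 1.77% of all genes tested were called, 1.10% higher and 0.673% lower. The adjusted p of the 9 genes ran from 0.213 to 0.953. At the nominal level, an unadjusted p under 0.05, stood Cdkn1a alone, 1 of 9, where the share was 14.3% of all genes, 7.28% higher and 7.02% lower. DESeq2 called 6.45% of all genes and 0 of the 9, and limma voom 1.50% and 0 of the 9, with 1 at the nominal level in each. Of the 9 log2 fold changes 4 were above 0 and 5 below, where 46.0% and 54.0% of all genes were. Groups stood apart, with no overlap, in 5 of the 9 genes, 2 of them higher and 3 lower in the Ezh2Y646N libraries, where 44.2% of all genes did not overlap (21.1% higher and 23.1% lower). Both shares lie near those of all genes. The median size of the log2 fold change was 0.29 over the 9 genes and 0.30 over all genes, with a median standard error (SE) of 0.30 over the 9. The smallest change that any of the 253 called genes had was 1.15 on the log2 scale, above the largest of the 9, 0.68. An exact permutation test of a single gene over 2 and 2 libraries cannot give a 2-sided p below 0.333.

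**Figure D1:**
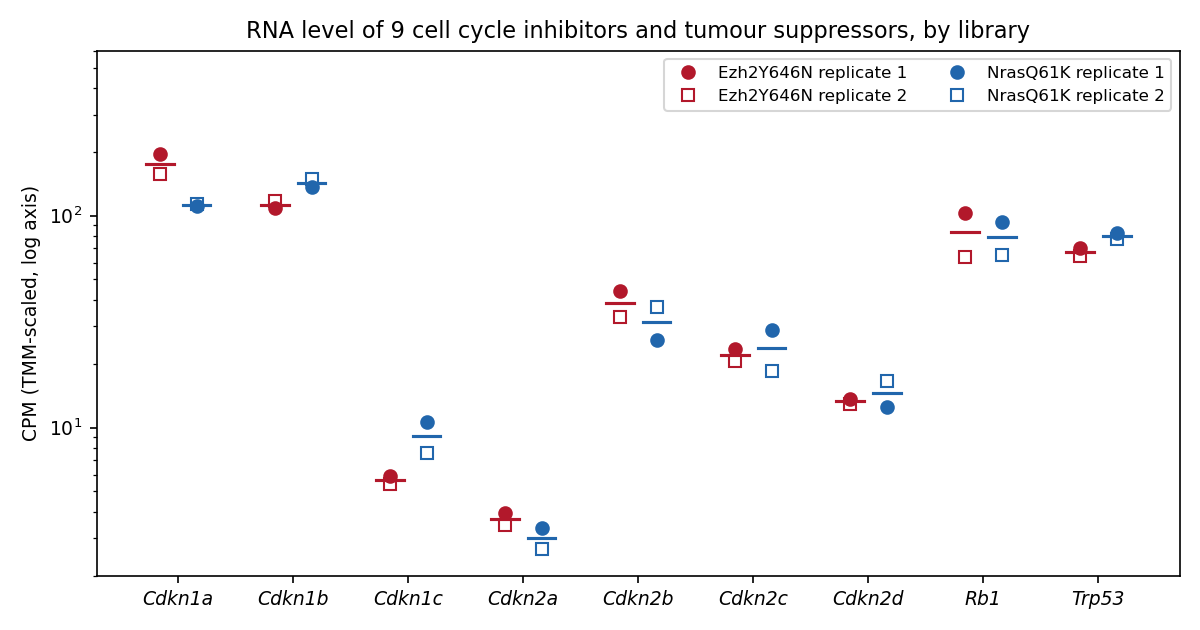
Level of each of the 9 genes in every library, in counts per 1000000 (CPM, TMM-scaled) on a log axis, with Ezh2Y646N in red left of NrasQ61K in blue; filled circles are replicate 1, open squares replicate 2 and bars the group means. The groups stand apart for Cdkn1a and Cdkn2a, higher in Ezh2Y646N, and for Cdkn1b, Cdkn1c and Trp53, lower in Ezh2Y646N, and overlap for the other 4.

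The Cip/Kip genes gave the widest spread of values, with Cdkn1a and Cdkn1b on opposite sides. Levels are TMM-scaled counts per 1000000 (CPM). Cdkn1a (ENSMUSG00000023067, GRCm38 chromosome 17, 29090976 to 29100727, + strand) encodes p21, the inhibitor that p53 induces. It was measured at 195 and 158 CPM in the Ezh2Y646N libraries, against 111 and 113 CPM in the NrasQ61K libraries. Both Ezh2Y646N libraries were above both NrasQ61K libraries, and the NrasQ61K pair was nearly level while the Ezh2Y646N pair differed by 1.24-fold. The means were 176 ± 26.2 CPM in Ezh2Y646N and 112 ± 1.58 CPM in NrasQ61K (SD, n = 2 each). This is a fold change of 1.57 with a 95% interval of 1.10 to 2.24, or 0.65 on the log2 scale with an SE of 0.22. The unadjusted p was 0.0187 and edgeR's adjusted p 0.213, so the difference did not pass. Without Ezh2Y646N replicate 1, the library with the most Cdkn1a, the log2 fold change was 0.49, and over all 13 alternatives it ran from 0.49 to 0.79 with an adjusted p of 0.0826 to 0.774. The transcript AC167363.2 on the opposite strand, which has no row in the tables, overlaps 273 bases of the gene's exons, and the sources used here do not give the strand setting of the counting.

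Cdkn1b (ENSMUSG00000003031, chromosome 6, 134920401 to 134925513, + strand) encodes p27, the inhibitor that holds resting cells out of the cycle and is removed by the Skp2 ubiquitin ligase. Its level was 108 and 117 CPM in the Ezh2Y646N libraries and 136 and 149 CPM in the NrasQ61K libraries. Both Ezh2Y646N libraries were below both NrasQ61K libraries, with replicates of a group within 1.09-fold of each other. Its log2 fold change was -0.34 (SE 0.21), a fold of 0.792 with an interval of 0.565 to 1.11, and edgeR's adjusted p was 0.564. Cdkn1c (ENSMUSG00000037664, chromosome 7, 143458339 to 143461050, - strand) encodes p57, an imprinted inhibitor active mainly in development. It was at 5.92 and 5.39 CPM in the Ezh2Y646N libraries, against 10.6 and 7.58 CPM in the NrasQ61K libraries. Again the groups did not overlap, and the log2 fold change of -0.68 (SE 0.37) was the largest in size of the 9. Its interval in folds, 0.342 to 1.13, includes no change, and edgeR's adjusted p was 0.488. Cdkn1c was also among the lowest, with 103 and 78 reads in the Ezh2Y646N libraries and 168 and 158 in the NrasQ61K libraries. The antisense transcript Gm44732, which has no row in the tables, overlaps 625 bases of its exons.

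**Figure D2:**
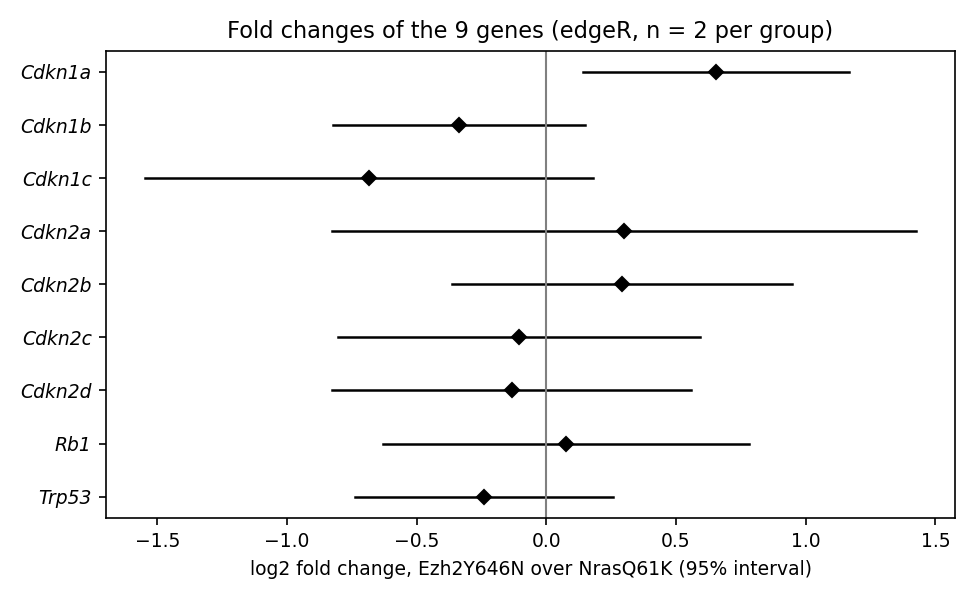
The log2 fold change of each of the 9 genes, Ezh2Y646N over NrasQ61K, with its 95% interval from edgeR (n = 2 libraries per group, not adjusted for multiple tests). The interval of Cdkn1a, 0.14 to 1.17, lies above 0, and those of the other 8 genes include 0.

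Because scaling drops out of a ratio of 2 genes in the same library, the Cip/Kip genes were also set against each other, in CPM per kb of exon. These pairs were chosen after their values were seen. Cdkn1a stood at 2.31 and 1.72 times Cdkn1b in the Ezh2Y646N libraries, and at 1.04 and 0.975 times Cdkn1b in the NrasQ61K libraries. Per kb, p21 RNA thus outweighed p27 RNA in both Ezh2Y646N libraries, while they were about level in both NrasQ61K libraries. The near-equal level rests on the exon lengths used, 3553 bases for Cdkn1a and 4552 for Cdkn1b. In CPM, Cdkn1b was above Cdkn1a in both NrasQ61K libraries, at 136 and 149 against 111 and 113. In Ezh2Y646N it was below, at 108 and 117 against 195 and 158. The difference between groups in the ratio of Cdkn1a to Cdkn1b does not depend on the lengths. The ratio was 1.98-fold higher in Ezh2Y646N, a log2 difference of 0.98 that ran from 0.77 to 1.19 with each library left out in turn. The exact permutation p, 2-sided, was 0.333, the smallest that 2 and 2 libraries allow. Against Trp53, Cdkn1a stood at 3.16 and 2.77 in the Ezh2Y646N libraries and at 1.53 and 1.67 in the NrasQ61K libraries (exact permutation p = 0.333). Of 7 ratios computed, Ink4 and Rb1 pairs among them, 3 did not overlap between the groups and 4 did. Of single genes tested, 44.2% did not overlap. All 3 had Cdkn1a as numerator, so they are not separate observations. The last of them, Cdkn1a over Cdkn1c, stood at 18.9 and 16.8 in the Ezh2Y646N libraries and at 5.99 and 8.57 in the NrasQ61K libraries. The Benjamini-Hochberg adjusted exact permutation p of those 3 was 0.778. Since the pairs were chosen on these values and none of their genes was called, the ratios are a description.

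Shares of the summed Cip/Kip RNA restate the levels above, were not tested, and in 1 sum are tied to each other. Per kb of exon the Cip/Kip sum came to 81.5 and 72.8 CPM in the Ezh2Y646N libraries, against 66.3 and 68.2 CPM in the NrasQ61K libraries. These did not overlap, as 44.2% of single genes tested did not. Cdkn1a took 67.3% and 61.0% of it in the Ezh2Y646N libraries and 47.1% and 46.7% in the NrasQ61K libraries. Cdkn1b took 29.2% and 35.4% in Ezh2Y646N, against 45.1% and 47.9% in NrasQ61K. Cdkn1c was the smallest share in every library, 3.56% and 3.63% in Ezh2Y646N and 7.85% and 5.45% in NrasQ61K. In the Ink4 sum, Cdkn2b took 60.5% and 55.7% in Ezh2Y646N and 46.4% and 57.5% in NrasQ61K, with overlap. Cdkn2d took 16.4% and 19.3% of it in Ezh2Y646N, against 19.7% and 22.7% in NrasQ61K, with no overlap, and the shares of Cdkn2a and Cdkn2c overlapped. The Ink4 sum itself was 52.4 and 42.7 CPM per kb in Ezh2Y646N and 40.3 and 46.4 CPM per kb in NrasQ61K, so the groups overlapped.

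**Figure D3:**
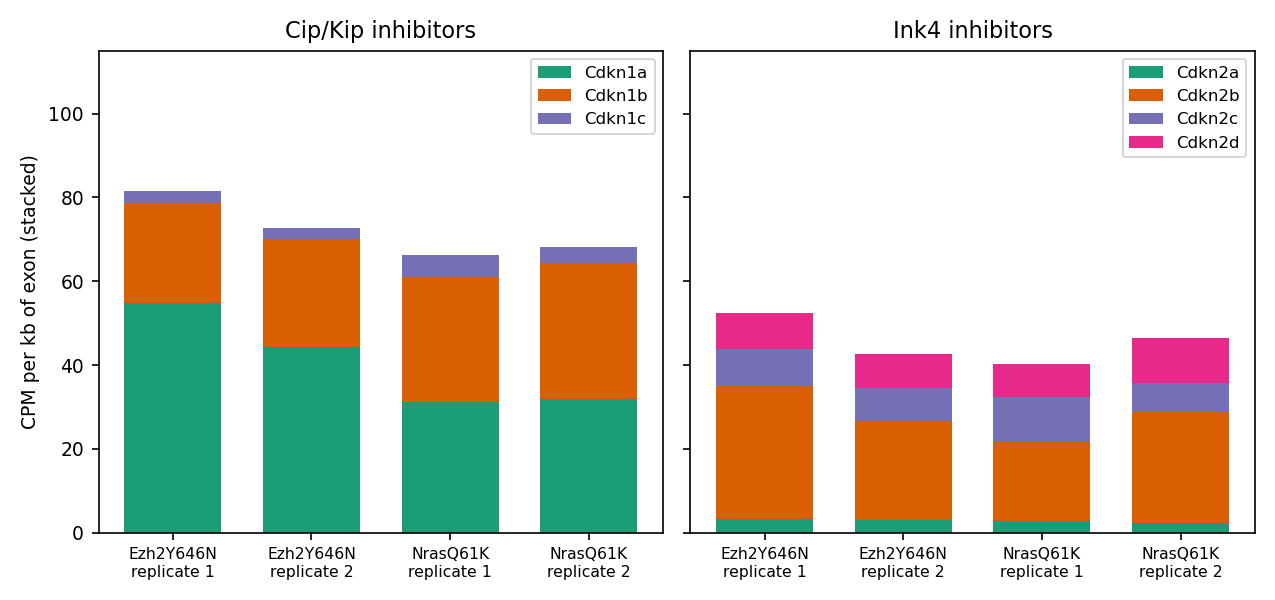
Summed level of the Cip/Kip inhibitors (left) and the Ink4 inhibitors (right) in each library, in CPM per kb of exon, stacked by gene, with the Ezh2Y646N libraries left of the NrasQ61K libraries. Cdkn1a is the largest part of the Cip/Kip bars in Ezh2Y646N, at 67.3% and 61.0%, and close to Cdkn1b in NrasQ61K, while the Ink4 bars of the groups overlap.

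None of the 4 Ink4 genes passed the test. Cdkn2a (ENSMUSG00000044303, chromosome 4, 89274471 to 89294653, - strand) was at 3.97 and 3.45 CPM in the Ezh2Y646N libraries, against 3.35 and 2.69 CPM in the NrasQ61K libraries. The groups did not overlap, but the lowest Ezh2Y646N value lay just above the highest NrasQ61K value. These levels rest on 69 and 50 reads in the Ezh2Y646N libraries and on 53 and 56 in the NrasQ61K libraries. For Cdkn2a the log2 fold change was 0.30 (SE 0.48), and its interval in folds, 0.564 to 2.69, covers both lower and higher levels. The adjusted p in edgeR was 0.865, and the interval includes no change. With 15.1% of tested genes below it in mean CPM, Cdkn2a was the least abundant of the 9, though reads were present in all 4 libraries.

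Cdkn2b (ENSMUSG00000073802, chromosome 4, 89306299 to 89311039, - strand) lies 11645 bases from Cdkn2a and encodes p15, an inhibitor of Cdk4 and Cdk6 known to answer to TGF-beta. It was at 44.1 and 33.1 CPM in the Ezh2Y646N libraries and at 26.0 and 37.0 CPM in the NrasQ61K libraries, so the groups overlapped (log2 fold change 0.29, SE 0.28, edgeR's adjusted p = 0.752). Cdkn2b was far more abundant than its neighbour. Per kb of exon it stood at 9.37 and 8.08 times Cdkn2a in the Ezh2Y646N libraries and at 6.54 and 11.6 times Cdkn2a in the NrasQ61K libraries, again with overlap.

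Cdkn2c (ENSMUSG00000028551, chromosome 4, 109660876 to 109667189, - strand), which encodes p18, was at 23.4 and 20.7 CPM in the Ezh2Y646N libraries and at 29.0 and 18.5 CPM in the NrasQ61K libraries. The NrasQ61K libraries lay on both sides of the Ezh2Y646N pair and differed from each other by 1.57-fold. Between groups the log2 fold change was -0.11 (SE 0.30, edgeR's adjusted p = 0.931). Cdkn2d (ENSMUSG00000096472, chromosome 9, 21288410 to 21291407, - strand), which encodes p19Ink4d, was at 13.6 and 13.0 CPM in the Ezh2Y646N libraries and at 12.5 and 16.6 CPM in the NrasQ61K libraries. Here too the NrasQ61K libraries lay on both sides, but in the other order, with replicate 1 low and replicate 2 high. Its log2 fold change was -0.13 (SE 0.30) with an adjusted p of 0.911 in edgeR. The sign of both genes turned when 1 NrasQ61K library was left out, to 0.25 for Cdkn2c without replicate 1 and to 0.13 for Cdkn2d without replicate 2.

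Rb1 (ENSMUSG00000022105, chromosome 14, 73183673 to 73325822, - strand) encodes the pocket protein on which both inhibitor families converge. It was at 103 and 63.7 CPM in the Ezh2Y646N libraries and at 93.3 and 65.2 CPM in the NrasQ61K libraries. Replicate 1 was high and replicate 2 low in each group, a difference of 1.62-fold within Ezh2Y646N and 1.43-fold within NrasQ61K, while the log2 fold change between groups was 0.08 (SE 0.30, edgeR's adjusted p = 0.953). The interval in folds was 0.646 to 1.72. On the opposite strand within or across its ends lie Lpar6, a lysophosphatidic acid receptor gene that shares 408 bases of exon with it, and Rcbtb2, which shares 488. Neither passed, at -0.78 for Lpar6 and -0.45 for Rcbtb2 on the log2 scale. Each of the 2 had at most 296 reads in a library, where Rb1 had at least 923.

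Trp53 (ENSMUSG00000059552, chromosome 11, 69580359 to 69591873, + strand) was at 70.1 and 64.8 CPM in the Ezh2Y646N libraries, against 82.4 and 77.3 CPM in the NrasQ61K libraries. Both Ezh2Y646N libraries were below both NrasQ61K libraries, with replicates within 1.08-fold. The means were 67.5 ± 3.73 CPM in Ezh2Y646N and 79.8 ± 3.64 CPM in NrasQ61K (SD, n = 2 each). On the log2 scale the difference was -0.24 (SE 0.21), the interval in folds 0.599 to 1.19, and edgeR's adjusted p 0.716. The p53 protein is controlled mainly after translation, so its RNA level is not a measure of its activity. Wrap53, which starts head to head with Trp53 at a distance of 103 bases, shares no annotated exon base with it here.

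Per kb of exon, which allows levels to be compared between genes, Cdkn1a ranked first with a mean of 40.6 CPM per kb over the 4 libraries and a range of 31.2 to 54.8. It was followed by Cdkn1b at 28.0, Cdkn2b at 25.2, Trp53 at 18.2, Rb1 at 13.5, Cdkn2d at 8.84, Cdkn2c at 8.53, Cdkn1c at 3.62 and Cdkn2a at 2.87. The ranges of most neighbours in this order overlapped over the libraries. Gaps between neighbours lay only between Rb1 and Cdkn2d, at 10.6 and 10.5, and between Cdkn2c and Cdkn1c, at 6.89 and 5.21 CPM per kb. Cdkn2c, ranked below Cdkn2d, reached 10.8 CPM per kb in NrasQ61K replicate 1, so its range overlapped that of Rb1. The exon lengths are those of GENCODE M21, joined over all transcripts of a gene, so the order rests on them. GENCODE M21 may not be the annotation the reads were counted on. On this scale the p21, p27 and p15 genes were the abundant inhibitors in these cells, and the p57 and p16/p19Arf genes the scarce ones.

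The pattern of Cdkn1a, the gene with the smallest p, was compared with 11441 protein-coding genes by Euclidean distance of mean-centred log2 CPM over the 4 libraries. The nearest were Plxna4 at a distance of 0.04, with 20.9 and 16.8 CPM in Ezh2Y646N and 11.4 and 11.3 CPM in NrasQ61K, then Paip2b and Tmem29, each at 0.05. With 4 libraries such likeness is a description only.

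Around these inhibitors, the kinases and cyclins that they act on were not called either. Of 5 cell cycle CDKs, edgeR and voom called 0, the nominal level held 1, and 1 was higher by DESeq2. This was Cdk6, a target of the Ink4 proteins, at 165 and 139 CPM in the Ezh2Y646N libraries against 94.1 and 80.4 CPM in the NrasQ61K libraries. Both Ezh2Y646N libraries were higher, a log2 fold change of 0.80 (SE 0.22) with an adjusted p of 0.135 in edgeR and 0.0401 in DESeq2. Cdk4, the other Ink4 target, had a log2 fold change of -0.36 and Cdk7, part of the kinase that activates CDKs, one of 0.36. Of 9 cyclins, edgeR and voom again called 0, the nominal level held 1, and 1 was lower by DESeq2. This was Ccnd2, the D-type cyclin 2, at 180 and 146 CPM in the Ezh2Y646N libraries against 675 and 353 CPM in the NrasQ61K libraries. Ccnd2 had a log2 fold change of -1.66 (SE 0.34) and an edgeR adjusted p of 0.0616, and it passed under 6 of the 13 alternatives, among them without either NrasQ61K library. Ccnb2 and Ccne1 had values of -0.51 and -0.57, and the median of the cyclins was -0.45, against -0.04 over all genes. That median was 0.21 without NrasQ61K replicate 1.

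Downstream of Rb1, edgeR, DESeq2 and voom each called 0 of 16 pocket protein and E2F genes, and 0 reached the nominal level. Of these 13 had a log2 fold change below 0, with a median of -0.33, where 54.0% of all genes were below 0. E2f2, an activating E2F, had -0.82, E2f3 -0.66 and E2f5 -0.61. The list summed to 584.4 and 503.0 CPM in the Ezh2Y646N libraries and 767.5 and 527.1 CPM in the NrasQ61K libraries. Only NrasQ61K replicate 1 thus stood above both Ezh2Y646N libraries. In that library E2f2 was at 55.6 and E2f3 at 42.3 CPM, against 25.9 and 18.9 CPM in NrasQ61K replicate 2. The 20 E2F target genes were centred near 0, with a median of -0.02, 0 calls in the 3 tools and 0 genes at the nominal level. In all 20 the groups overlapped. Their summed level was 2768 and 1725 CPM in the Ezh2Y646N libraries and 3515 and 1634 CPM in the NrasQ61K libraries, so the libraries differed more within a group than the groups did. The proliferation markers Mki67 and Top2a, also in that list, had log2 fold changes of -0.36 and -0.40, and Tk1 one of -0.23.

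Genes that p53 switches on lay on both sides of 0. Of 30 tested, the 3 tools each called 0, edgeR had 2 higher and 3 lower at the nominal level, and the median log2 fold change was 0.02. Zmat3, an RNA-binding tumour suppressor, was at 105 and 68.5 CPM in Ezh2Y646N and 53.5 and 51.6 CPM in NrasQ61K, a log2 fold change of 0.72. Ei24 had one of 0.68, on the same side as Cdkn1a. The kinase gene Plk2 lay on the other side, at 88.9 and 86.3 CPM in Ezh2Y646N and 132 and 163 CPM in NrasQ61K, or -0.75 on the log2 scale (edgeR's adjusted p = 0.155). Of 12 regulators of p53, the 3 tools called 0 and 0 reached the nominal level, with a median of -0.10. The p53 inhibitor Mdm4 had a log2 fold change of -0.59, the damage kinase Atr -0.60 and Sirt1 -0.39. For Mdm4 and Atr, NrasQ61K replicate 1 stood apart, at 238 and 74.4 CPM against 145 and 42.4 CPM in NrasQ61K replicate 2. The p53 relatives Trp73 and Trp63 had values of 0.71 and 0.03, with 0 of 2 called in the 3 tools and 0 at the nominal level.

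**Figure D4:**
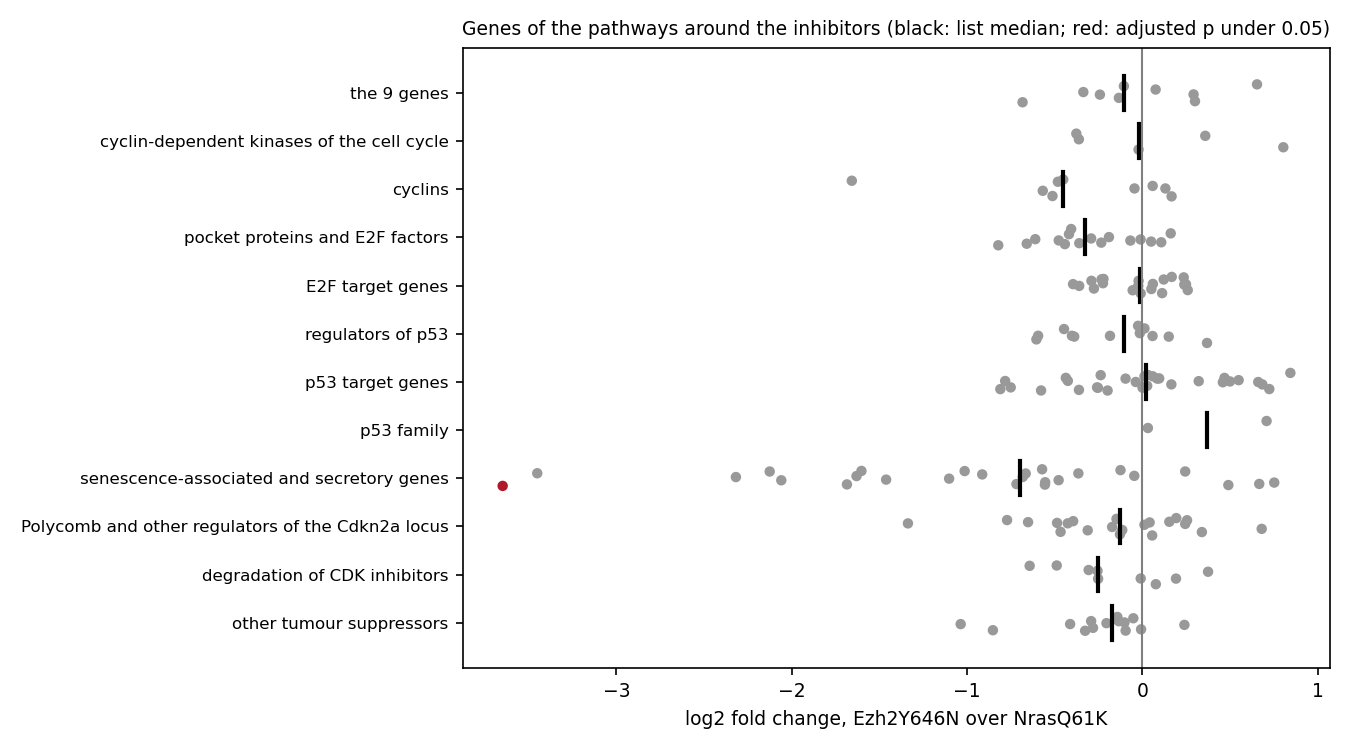
The log2 fold change, Ezh2Y646N over NrasQ61K, of each tested gene in the lists around the 9 genes, 1 dot per gene with the list median as a black bar. The single red dot, past an adjusted p of 0.05, is Cxcl2 at -3.65, a gene near the floor in Ezh2Y646N. The secretory list has the lowest median, -0.70.

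Of the pathway lists, which share some genes, the one of senescence-associated and secretory genes held a call in edgeR and the other 10 held 0. Of 28 such genes 26 were tested, and of those 0 were higher and 1 was lower in edgeR, 11 were lower at the nominal level, and DESeq2 had 4 lower and voom 0. Over all genes tested, edgeR had 0.673% lower, and 7.02% lower at the nominal level. In either direction DESeq2 called 6.45% of all genes and voom 1.50%. The median log2 fold change of the secretory list was -0.70. Cxcl2, a neutrophil-attracting chemokine, was near the floor in Ezh2Y646N. In Ezh2Y646N replicate 2, Cdkn2a at 3.45 CPM rested on 50 reads, and Cxcl2 was lower still. Cxcl2 was at 0.402 and 0.414 CPM in the Ezh2Y646N libraries, against 4.11 and 6.28 CPM in the NrasQ61K libraries. On the log2 scale this was -3.65 (SE 0.62) with an adjusted p of 0.0380 in edgeR, and its call did not survive voom (0.0873) or the loss of Ezh2Y646N replicate 1 (0.0906), of Ezh2Y646N replicate 2 (0.0511) or of NrasQ61K replicate 2 (0.0911). The monocyte chemokine Ccl2 was at -2.13 on the log2 scale (adjusted p = 0.0777) and Igfbp4, which binds insulin-like growth factors, at -0.91 (0.0854). Chemokines are also made by macrophages, fibroblasts and keratinocytes. In the same libraries 10 of 10 macrophage and dendritic cell markers were below 0, with a summed level of 71.2 and 142 CPM in Ezh2Y646N and 156 and 390 CPM in NrasQ61K. For 10 fibroblast markers, 9 of them below 0, the sums were 916 and 2129 CPM in Ezh2Y646N and 4109 and 2407 CPM in NrasQ61K. No marker of either list was at 0 in any library. Their part in the result was not tested.

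Regulators of the Cdkn2a locus were not called. Of 21 Polycomb and other regulators, the 3 tools called 0 and edgeR had 2 lower at the nominal level, with a median of -0.13. They were Twist1 at -1.34 and Id1 at -0.65, both known as repressors of Ink4a. Cbx7, the Polycomb subunit known to silence the locus, stood at 0.68 and did not pass. Ezh2 RNA was at 135 and 91.6 CPM in the Ezh2Y646N libraries and at 171 and 75.1 CPM in the NrasQ61K libraries (log2 fold change -0.11, edgeR's adjusted p = 0.943), and its counts do not tell mutant from endogenous RNA, so it does not check the labels. Of 9 genes that degrade CDK inhibitors, the 3 tools called 0 and 0 reached the nominal level, with Skp1a at 0.37, Cks1b at -0.64 and Fbxw7 at -0.26 and a median of -0.25. Of 14 other tumour suppressors, the 3 tools called 0 and 2 were lower at the nominal level, Rassf1 (-0.85) and Vhl (-1.04), with Arid2 at -0.41. In that list 13 of 14 were below 0, with a median of -0.17.

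Among genes that lie beside the 9, Rab44 was called. It starts 13417 bases past the end of Cdkn1a on the same strand and encodes a large Rab GTPase. Rab44 rose to 10.6 and 8.15 CPM in the Ezh2Y646N libraries, against 1.33 and 1.68 CPM in the NrasQ61K libraries, or 2.63 on the log2 scale with an SE of 0.44 and an adjusted p of 0.0370 in edgeR. The call was lost without Ezh2Y646N replicate 1 (adjusted p = 0.120) and in voom (0.0567). The next gene, Cpne5, which encodes a copine on the opposite strand, stood at 1.27 and did not pass. Srsf3, 47602 bases before Cdkn1a on the same strand, stood at -0.48. Beside other genes of the 9, Phlda2 near Cdkn1c was at -2.05 and Itm2b near Rb1 at 1.11, and neither passed. In all, 19 neighbours were tested, 9 above 0 and 10 below, with a median of -0.04. Of these, 1 was higher and 0 were lower in edgeR, where 1.77% of all genes were called. DESeq2 had 2 higher and voom called 0. The neighbours named here were chosen after their values were seen.

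The sorted cells held RNA of more than melanocytes. Total counts ran from 14808801 to 20600297 per library. Of scaled counts, 12 melanocyte markers took 0.434% and 0.435% in the Ezh2Y646N libraries and 0.375% and 0.405% in the NrasQ61K libraries. The higher sum in Ezh2Y646N rested on the melanin enzyme gene Dct, at 2203 and 2757 CPM against 1486 and 2002 CPM in NrasQ61K. Gpnmb, the next most abundant, went the other way, at 373 and 327 CPM in Ezh2Y646N against 1044 and 544 CPM. Of the 12 markers, 10 were above 0 and 2 below, edgeR called 0 and DESeq2 had 1 lower. Markers of basal keratinocytes took 1.19% to 2.63% per library. Those of suprabasal keratinocytes took 4.36% and 3.17% in the Ezh2Y646N libraries and 0.448% and 1.06% in the NrasQ61K libraries, with 10 of 10 above 0, 3 called higher and Krt10 at a log2 fold change of 2.78 (adjusted p = 0.0514). Hair shaft and inner root sheath markers took 0.0504% and 0.0232% in Ezh2Y646N and 0.279% and 0.149% in NrasQ61K, with 9 of 9 below 0 and 5 called lower. No marker of these 4 lists was at 0 in any library. Suprabasal keratinocytes are known to express Cdkn1a, and their summed markers, like Cdkn1a, were highest in Ezh2Y646N replicate 1. Within NrasQ61K, Cdkn1a was nearly level, at 111 and 113 CPM, where those markers summed to 4480 and 10560 CPM. The part of suprabasal keratinocytes in the Cdkn1a values was not tested. The proliferation markers summed to 2405 and 1732 CPM in Ezh2Y646N and 3734 and 1511 CPM in NrasQ61K. The highest library, NrasQ61K replicate 1, was also the highest for Cdkn2c, Cdkn1c and Trp53 and the lowest for Cdkn2b, Cdkn2d and Cdkn1a. Some of these ranks were near ties. Cdkn1a was at 111 CPM there against 113 CPM in NrasQ61K replicate 2, and Cdkn2d at 12.5 against 13.0 CPM in Ezh2Y646N replicate 2. Cdkn1b, Cdkn2a and Rb1 were at neither extreme in NrasQ61K replicate 1. The part of proliferating cells in these values was not tested either.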

How the data were processed

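RNA sequencing was done on 4 libraries, 2 labelled Ezh2Y646N and 2 labelled NrasQ61K, from a stranded low-input total RNA kit with ribosomal RNA removal, per the labels' protocols. The authors deposited raw read counts per Ensembl gene, 22524 per library. Per the submitters' processing notes, GRCm38 and the tools STAR 2.5.4b, featureCounts, bcl2fastq 2.19, edgeR and Trimmomatic were used, with no roles stated. The sources used here do not give the annotation release or strand setting, so reads of overlapping or antisense genes cannot be told apart. Symbols, positions and exon lengths came from GENCODE M21 on GRCm38, where 22291 gene identifiers were found.

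From these counts, genes were kept by filterByExpr (minimum count 10, total 15), scaled by TMM and tested with edgeR 4.0.16 in R 4.3.3 (quasi-likelihood, robust, 2 residual degrees of freedom, no replicate block), after the script was tested on simulated data. Standard errors are the log2 fold change over the square root of F, and the 95% intervals are not adjusted. DESeq2 1.42.0 and limma 3.58.1 voom were among 13 alternatives, with other scalings and filters and each library left out. The members and 26 gene lists (320 genes, 315 with a row) were chosen with earlier results of these data known. The rule named the 9, Ezh2, up to 3 genes per pathway list with the smallest p, the 2 most abundant per marker list (few are printed), neighbours where overlap matters, and the 3 patterns nearest to the member with the smallest p. Lists for cells and RNA quality not described in the report had medians of -0.76 (endothelium), -0.30 (lymphocyte and mast cell), 0.56 (skeletal muscle), 0.73 (glia, 1 of 8 called), 1.57 (erythroid), -0.25 (dissociation stress) and -0.14 (mitochondrially encoded). Replicates differed beyond counting noise (chi-square per degree of freedom 41.8 in Ezh2Y646N and 91.9 in NrasQ61K), so none was taken as a repeat. The exact permutation test was 2-sided.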

Additional observations from a re-analysis of the deposited data

How the results depend on the processing

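None of the 9 genes was called under any of the 13 alternatives, and the lowest adjusted p was 0.0826, for Cdkn1a with the replicate number as a block (log2 fold change 0.65). Cdkn1a, Cdkn2a and Cdkn2b stayed above 0 and Cdkn1b, Cdkn1c and Trp53 below 0 in all 13. Signs turned for genes near 0. Rb1 was at -0.046 with total counts, which moved the median of all genes by -0.12, at -0.31 without Ezh2Y646N replicate 1 and at -0.12 without NrasQ61K replicate 2. Leaving out libraries gave a range of -0.35 to 0.25 for Cdkn2c, -0.32 to 0.13 for Cdkn2d and -0.31 to 0.38 for Rb1. Between leaving out NrasQ61K replicate 2 and replicate 1, Ezh2 ran from -0.55 to 0.59, Ccnb2 from -0.93 to 0.15, E2f3 from -1.09 to 0.033, Top2a from -0.89 to 0.46, Mki67 from -0.83 to 0.43 and Tk1 from -0.57 to 0.28. Ezh2 was at 0.13 without Ezh2Y646N replicate 2. Trp63 was at 0.20 and -0.17 without Ezh2Y646N replicates 1 and 2 and at -0.084 with total counts. The cause was not tested.

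Over all genes, 157 were called higher and 96 lower. With no filter on low counts 686 and 616 were called, with DESeq2 527 and 393, with total counts 153 lower, where 53.2% of calls were higher against 62.1%, and with each library left out 49 to 730 higher and 43 to 393 lower. The replicate block called 710 higher and 627 lower, Cdk6 and Ccnd2 among them. With that block, or with a library left out, fewer residual degrees of freedom remain than the 2 of the main fit. The labels do not say that the numbers pair libraries, and the deviations of same-numbered libraries had a correlation of 0.14 across genes, which are not independent replicates. Cdkn2a rests on the fewest reads of the 9, with 50 to 69 per library.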
